A study of Mus musculus with 2 samples.

Results

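Mir191, Mir425, Mir186, Mir361, Mir423 and Mir324 are microRNA genes that others have often used as references for scaling microRNA measurements, and they were taken here by name, as 6 of the 1973 entries in the count table. The question was how equal these 6 microRNAs were in the livers of 2 newborn mice. Total RNA from the liver of pup 1 and of pup 2, which the labels place in 1 litter (strain B6NCrl, postnatal day 0, sex not collected, no treatment), was sequenced as microRNA libraries with inserts below 30 bases. There is 1 library per pup and no second group. Every difference below is thus one between 2 libraries, in which animal and library preparation cannot be told apart. The table lists no entry called Mir191. Its reads were taken from the opposite strand of the entry Gm24083, which covers the same place.

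A microRNA is cut from a hairpin in a longer transcript, and 1 arm, or each of the 2 arms, is loaded into an Argonaute protein, where bases 2 to 8 (the seed) pair with target messenger RNAs. Some microRNAs that are held to vary little between tissues serve as yardsticks, and miR-191, miR-425, miR-186, miR-361 and miR-423 are common choices. MicroRNA levels depend on transcription of the host locus, on cleavage by Drosha and Dicer and on decay of the mature strand, so microRNAs cut from 1 transcript can still differ in level.

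The 12 mature arms of the 6 genes are shown first. Counts were given per gene and do not separate the arms. All 6 genes matched an entry in RefSeq (GRCm38.p6), and capitals mark the seed, 5′ to 3′.
mmu-miR-191-5p: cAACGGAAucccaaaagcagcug
mmu-miR-191-3p: gCUGCACUuggauuucguuccc
mmu-miR-425-5p: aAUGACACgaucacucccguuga
mmu-miR-425-3p: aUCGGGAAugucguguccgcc
mmu-miR-186-5p: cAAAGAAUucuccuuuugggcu
mmu-miR-186-3p: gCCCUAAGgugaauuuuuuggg
mmu-miR-361-5p: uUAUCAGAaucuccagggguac
mmu-miR-361-3p: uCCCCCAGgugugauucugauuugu
mmu-miR-423-5p: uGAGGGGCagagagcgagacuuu
mmu-miR-423-3p: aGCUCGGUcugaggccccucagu
mmu-miR-324-5p: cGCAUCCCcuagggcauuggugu
mmu-miR-324-3p: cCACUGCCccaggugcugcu

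No seed was shared within the set: the 12 arms carried 12 distinct seeds. The mature arms were 20 to 25 bases long. Outside the set, 2 of the 12 seeds occurred in another mouse microRNA in RefSeq. The seed of miR-425-5p is also that of miR-489-3p, and the seed of miR-423-5p is also that of miR-6921-5p, as the pair of sequences below shows.
mmu-miR-489-3p: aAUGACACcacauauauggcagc
mmu-miR-6921-5p: uGAGGGGCaugagguaggaagc
Mir489 had 0 counts in both livers, which allows up to 0.877 CPM (counts per 1000000 gene-strand microRNA counts of the library) in pup 1 and 0.661 CPM in pup 2. Mir6921 had 4 counts in each. Of the uniquely mapped reads at the genes that carry these seeds, almost all therefore came from Mir425 and Mir423. The counts do not separate the arms, so the amount of each seed itself is not known. None of the 6 hairpins shared a stretch of 20 bases with another annotated microRNA locus, apart from the overlap of Mir191 with Gm24083. Hairpins were 70 to 109 bases long, and their GC content ran from 33.8% for Mir186 to 58.4% for Mir324.

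The 6 genes lie at 5 places in the genome (mm10), and only Mir191 and Mir425 are neighbours. Mir191 (chr9:108568319-108568392, plus strand) and Mir425 (chr9:108568777-108568861, plus strand) are 384 bases apart. Both lie in an exon of a transcript of the long noncoding RNA gene 4833445I07Rik, and Mir191 lies in an intron of another transcript of it. Mir186 (chr3:157544279-157544349, plus strand) sits in an intron of Zranb2, which encodes a splicing factor, in 6 of 6 overlapping transcripts. Mir361 (chrX:113074824-113074893, minus strand) sits in an intron of Chm, which encodes a Rab escort protein, on a chromosome whose copy number depends on the sex of the pup. Mir423 (chr11:77078064-77078172, minus strand) sits in an intron of Nsrp1, a gene for a nuclear speckle protein, and begins 263 bases from the start of that gene. Mir324 (chr11:70012043-70012131, plus strand) overlaps an untranslated region of 2 Dvl2 transcripts, Dvl2 being a relay of Wnt signalling, and lies opposite an intron of Acadvl, which encodes an enzyme of fatty acid oxidation. Apart from Mir191, Mir425 and Gm24083, no annotated microRNA locus lay within 10 kb of a member.

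Gm24083 is printed next as it is annotated (chr9:108568295-108568414, minus strand), with capitals for the 74 bases that are the reverse complement of the Mir191 hairpin. The hairpins of Mir191 and Mir425 follow, with the mature arms in capitals.
Gm24083: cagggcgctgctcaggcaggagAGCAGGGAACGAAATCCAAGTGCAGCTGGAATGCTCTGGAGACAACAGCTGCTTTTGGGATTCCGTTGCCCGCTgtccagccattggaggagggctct
Mir191: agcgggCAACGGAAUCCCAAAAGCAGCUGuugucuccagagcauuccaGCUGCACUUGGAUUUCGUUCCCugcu
Mir425: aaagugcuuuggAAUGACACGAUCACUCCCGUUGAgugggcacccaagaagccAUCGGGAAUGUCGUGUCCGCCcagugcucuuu
Every read at Gm24083 was on the strand of Mir191. The entry had 0 counts on its own strand in both libraries, and 14424 and 18636 counts on the opposite strand in pup 1 and pup 2. These were 8.65% and 8.71% of all opposite-strand counts, rank 5 in each library, among 20 entries with at least 10 such counts over both libraries. For the other 5 members the strands were as annotated. Mir324 had 1 and 2 counts on the opposite strand and the rest had 0.

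The libraries held 3422622 gene-strand microRNA counts in pup 1 and 4538427 in pup 2, and these totals are the denominators of CPM, also for Mir191, whose reads lie outside them. Levels are given in CPM, errors are the SD over n = 2 pups, and intervals are exact Clopper-Pearson at 95%. The intervals cover counting error only and take each read as an independent draw. Copies made by PCR are not independent molecules, so these intervals, and the exact tests on reads below, can understate that error. The liver marker Mir122 held the largest level, at 342309 and 354939 CPM. Over the fixed marker lists, the hepatocyte genes summed to 35.4% and 36.6% of counts, the leukocyte genes to 0.997% and 0.909% (4 of 5 with an entry), the erythroid genes to 0.531% and 0.515%, and the muscle genes to 0.0136% and 0.101% (4 of 5 with an entry, 2 of them at 0 in both). The gap in muscle genes was that of Mir206, at 136 CPM in pup 1 and 1004 CPM in pup 2. In whole liver, fewer cells of a type and less RNA per cell cannot be told apart.

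**Figure D1:**
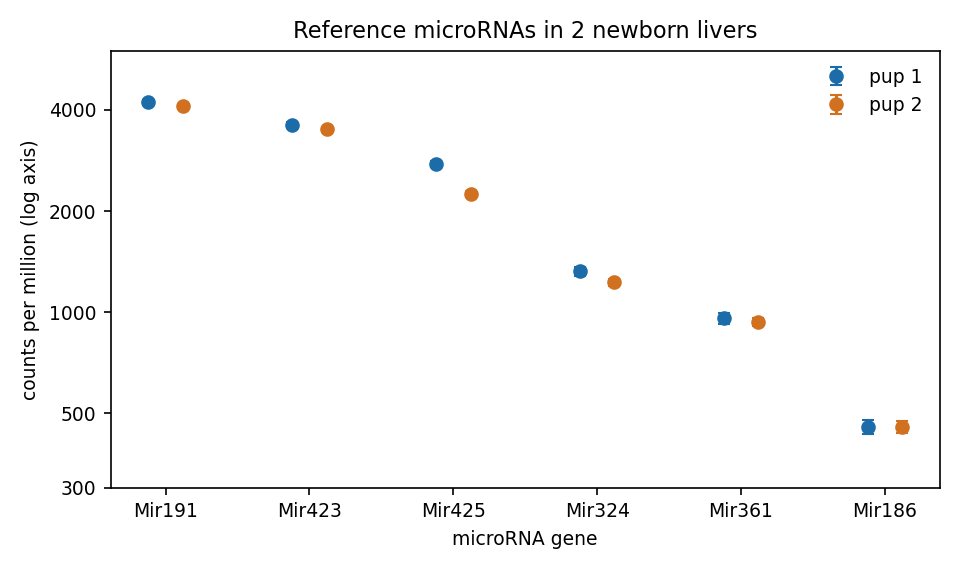
Level of each reference microRNA in CPM (log axis) in pup 1 (blue) and pup 2 (orange), with exact 95% intervals. The points of a gene nearly coincide, from 4214 and 4106 CPM for Mir191 down to 455 CPM in each pup for Mir186, and Mir425 shows the widest gap, 2762 against 2244 CPM.

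All 6 microRNAs were well counted in the newborn liver, in the same order in both pups: Mir191, Mir423, Mir425, Mir324, Mir361 and Mir186. Mir191 had 4214 CPM (4146 to 4284) in pup 1 and 4106 CPM (4048 to 4166) in pup 2. Mir423 had 3609 CPM (3546 to 3673) in pup 1 and 3510 CPM (3456 to 3565) in pup 2. In both genes the pups lay close together, with pup 1 slightly the higher.

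Mir425, the neighbour of Mir191, had 2762 CPM (2707 to 2818) in pup 1 and 2244 CPM (2200 to 2287) in pup 2. Pup 1 was clearly the higher of the 2, with intervals far apart. Mir324, whose 5p arm is known to target the Hedgehog signalling genes Smo and Gli1, had 1323 CPM (1285 to 1362) in pup 1 and 1226 CPM (1194 to 1259) in pup 2. Its intervals also did not overlap, with a smaller gap.

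Mir361 had 958 CPM (925 to 991) in pup 1 and 934 CPM (907 to 963) in pup 2. Mir186 had 455 CPM (433 to 479) in pup 1 and 455 CPM (436 to 476) in pup 2. The intervals of the pups overlapped in both genes, and the 1559 and 2067 counts of Mir186 gave nearly the same level. That closeness is finer than the counts can resolve, since the interval of the difference ran from -6.42% to 6.85%.

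The genes therefore spanned a range of 9.25-fold in pup 1 and 9.02-fold in pup 2. They ranked from 36 (Mir191) to 111 (Mir186) by mean level among all entries. Their summed counts equalled 1.29% ± 0.0598 (SD, n = 2) of the gene-strand total, 1.33% in pup 1 and 1.25% in pup 2. The Mir191 reads in this sum are opposite-strand counts, which that total does not include, so the figure is a size relative to the total and not a share of it. Each step in the order was larger than the spread between the pups. The closest step was Mir191 over Mir423, at 1.17 ± 0.00146 times, and the ranges of these genes still did not overlap. Mir423 stood at 1.44 ± 0.182 times Mir425, Mir425 at 1.96 ± 0.182 times Mir324, Mir324 at 1.35 ± 0.0489 times Mir361 and Mir361 at 2.08 ± 0.0360 times Mir186. These are read counts that were neither divided by length nor corrected for how readily each sequence ligates, so the order is that of reads, and each entry adds both arms of its hairpin.

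The pups were then compared gene by gene. Of the 6 members, 4 differed by less than 5% between the pups (Mir186, Mir361, Mir191 and Mir423), Mir324 lay within 1.2-fold and Mir425 did not. Among the 222 well-counted genes (100 counts or more in each library), 31.5% differed by less than 5% and 83.3% lay within 1.2-fold. The count of 5 of 6 within 1.2-fold is thus at the share of the well-counted genes. Every member had 1000 counts or more in each library, and 117 of the 131 genes at that depth lay within 1.2-fold. The share within 5% was not taken at that depth. Genes with fewer counts vary more by counting error alone, so the 31.5% is not matched to the members in depth. The median log2 ratio (pup 2 over pup 1) of the members was -0.04, against 0.00 over the 222 genes.

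Mir425 differed by -18.8% in pup 2, with a log2 ratio of -0.30 (-0.34 to -0.26). The exact binomial test of its reads, with Benjamini-Hochberg adjustment over the 391 genes tested, gave an adjusted p of 1.72e-46. Mir324 differed by -7.31% in pup 2, with a log2 ratio of -0.11 (-0.17 to -0.05) and an adjusted exact binomial p of 0.000735. This test asks only whether 2 libraries differ by more than counting error, and each pup gave 1 library, so no call here is about a condition.

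The other 4 members did not pass. Mir191 had a log2 ratio of -0.04 (-0.07 to -0.01) with an adjusted exact binomial p of 0.0620. Mir423 had a log2 ratio of -0.04 (-0.07 to -0.01) with an adjusted exact binomial p of 0.0655. Both sat close to the threshold of 0.05, and their calls depended on the scale. With the size factors of DESeq2 in place of the library totals both passed, at adjusted exact binomial p of 0.0166 and 0.0194. With TMM neither passed, at adjusted exact binomial p of 0.217 and 0.213. Nor did either pass with the total without Mir122, at adjusted exact binomial p of 0.756 and 0.690. Mir361 had a log2 ratio of -0.04 (-0.10 to 0.03, adjusted exact binomial p = 0.499), and Mir186 had a log2 ratio of 0.00 (-0.10 to 0.10, adjusted exact binomial p = 1).

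So 2 of 6 members were called, against 30.2% of all 391 genes tested. Both were lower in pup 2, a direction in which 14.3% of all genes were called, while 15.9% were called as higher. Calls depend on depth: 48.6% of the 222 well-counted genes were called, and 64.9% of the 131 genes that reached 1000 counts in each library, as every member did. When the spread between the pups over all genes was taken as the noise (negative binomial exact test of edgeR, biological coefficient of variation 0.129), 0 of 6 members and 0.512% of the 391 genes were called, and 0 of 6 members had an unadjusted exact p under 0.05. That noise was estimated from the same 2 libraries, so their difference is part of it and few genes could pass, and the lack of a call says nothing about how stable a member is. The gap of Mir425 exceeded counting error with each read taken as independent, and with 1 library per pup it has no replicate check.

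**Figure D2:**
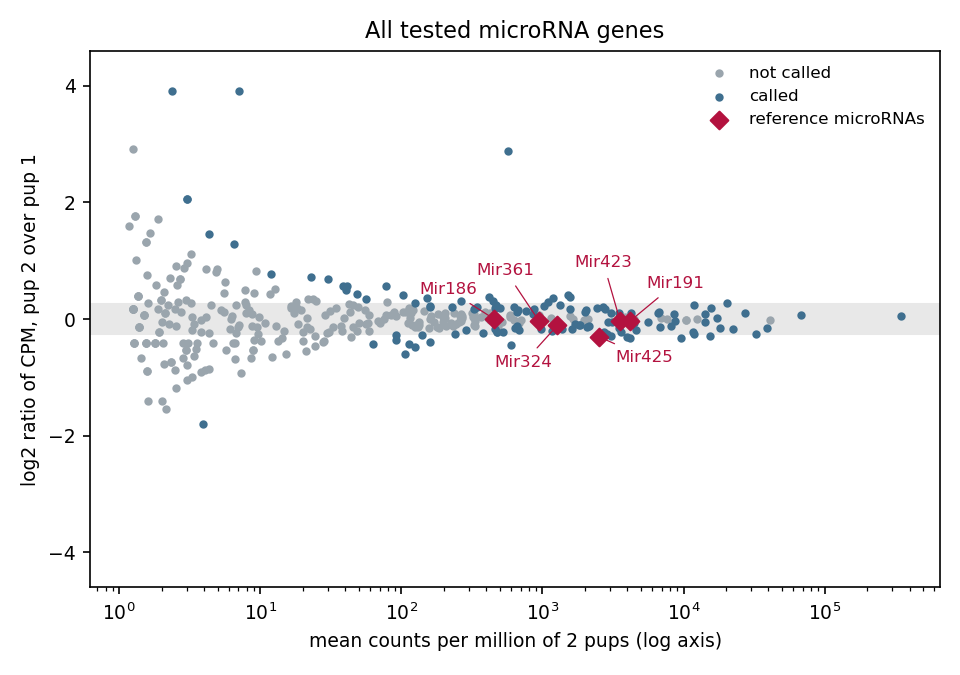
Log2 ratio of CPM between the pups against mean CPM (log axis) for the 391 microRNA genes tested. Red diamonds are the 6 reference microRNAs, dark points are genes called by the exact binomial test and the grey band is 1.2-fold. Mir425, at -0.30, is the member that lies outside the band.

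By the size of the difference, the members were spread over the ranks of the 222 well-counted genes. These include genes with fewer counts than any member, which vary more by counting error alone. Mir186 had the smallest absolute log2 ratio of all 222. Mir361, Mir191 and Mir423 ranked 36, 37 and 39, so 83.8%, 83.3% and 82.4% of the genes differed more. Mir324 ranked 98, near the middle. Mir425 ranked 194, and 86.9% of the genes were more equal than it. The coefficient of variation over the 2 pups was 14.6% for Mir425, 5.37% for Mir324, 1.96% for Mir423, 1.84% for Mir191 and 1.74% for Mir361.

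Genes of about the same level as each member gave a view of how equal unselected microRNAs were. Next to Mir191 by mean CPM stood Mir20a (4677 and 3722 CPM) and Mir744 (4039 and 4062 CPM). Next to Mir423 stood the erythroid Mir451a (3877 and 3310 CPM) and Mir148a (3694 and 3306 CPM). Mir191 and Mir423 were more equal than Mir20a, Mir451a and Mir148a, and Mir744 was more equal than Mir191.

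Beside Mir425 stood the imprinted gene Mir434 (2474 and 2856 CPM) and Mir351 (2280 and 2598 CPM), both called and both higher in pup 2, the reverse of Mir425. Beside Mir324 stood Mir543 (1223 and 1449 CPM), higher in pup 2, and Mir3071 (1228 and 1192 CPM). Mir361 lay between Mir185 (978 and 958 CPM) and Mir341 (924 and 966 CPM), neither of which was called. Mir186 lay between Mir148b (485 and 431 CPM), called as lower in pup 2, and Mir145a (448 and 462 CPM), not called. Both neighbours of Mir425 were more equal than Mir425, and both neighbours of Mir186 were less equal than Mir186. Mir3071 was more equal than Mir324, and Mir543 was less equal. Mir185 was slightly more equal than Mir361, and Mir341 was less equal. With 2 libraries, likeness of pattern can be given only as closeness in level.

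Mir191 and Mir425 were set against each other because they lie on 1 strand 384 bases apart, as the hairpins above show. The Mir191 reads were 1.53 times the Mir425 reads in pup 1 and 1.83 times in pup 2. On the log2 scale the ratio was larger by 0.26 in pup 2 (exact conditional 95% interval 0.21 to 0.31, Fisher's exact test on the counts, two-sided p = 8.63e-24). This ratio does not depend on the library total or on any scaling, and the test again compares the reads of these 2 libraries. Summed over both genes the locus gave 6976 CPM in pup 1 and 6350 CPM in pup 2, and Mir425 made up most of that gap. Beside it, leukocyte markers summed to 9973 CPM in pup 1 and 9092 CPM in pup 2, with 1 of 4 genes higher in pup 2. Erythroid markers summed to 5309 and 5150 CPM, with 1 of 3 genes higher in pup 2, and none of these markers with an entry was at 0. The hepatocyte, endothelial and muscle lists were higher in pup 2. Hepatocyte markers summed to 354080 CPM in pup 1 and 366126 CPM in pup 2, and muscle markers to 136 and 1008 CPM. The endothelial list stood at 65978 and 69174 CPM, and epithelial markers summed to 6548 and 6352 CPM. The part of any of these cell types in the Mir425 difference was not tested.

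The 15 ratios of one member to another restate the log2 ratios given above without any denominator. The log2 change of each is the difference between the log2 ratios of its 2 genes, so the 15 ratios are not further evidence. Mir191, Mir423, Mir361 and Mir186 kept nearly fixed proportions: their 6 ratios changed by 1.03-fold at most. Mir191 to Mir361 was 4.40 in pup 1 and 4.39 in pup 2, and Mir191 to Mir423 was 1.17 in each. Mir423 to Mir361 was 3.77 and 3.76, and Mir361 to Mir186 was 2.10 and 2.05. Ratios to Mir324 among these 4 moved a little more, the largest being Mir324 to Mir186, 2.90 in pup 1 and 2.69 in pup 2.

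As follows from the log2 ratio of Mir425, every one of the 5 ratios with it moved more than any of the 10 without it. Those with Mir425 changed by 1.14-fold to 1.23-fold, and those without it by 1.08-fold at most. The widest shift was that of Mir425 to Mir186, 6.06 in pup 1 and 4.93 in pup 2.

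**Figure D3:**
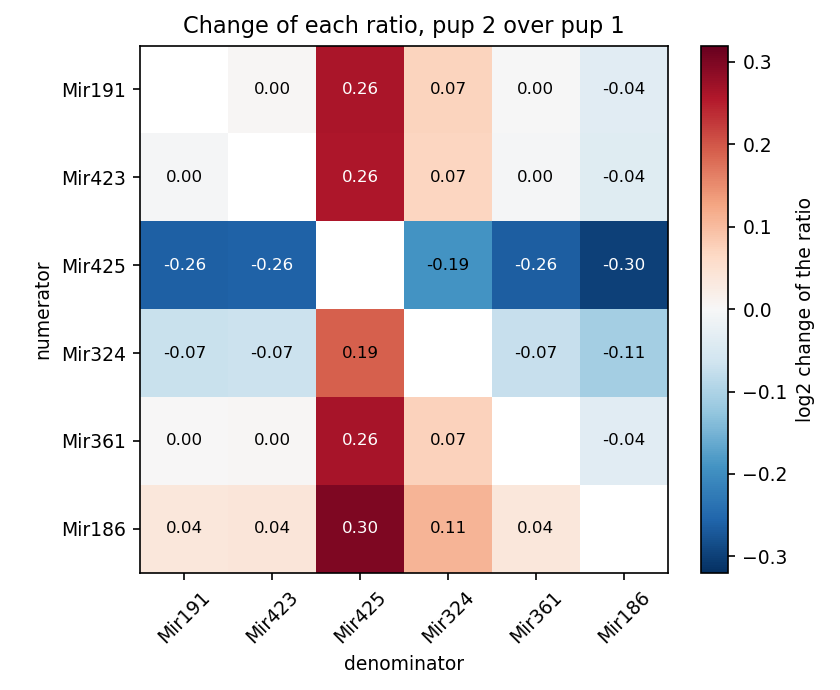
Log2 change from pup 1 to pup 2 of the ratio of the gene in the row to the gene in the column, red for a larger and blue for a smaller ratio in pup 2. The row and column of Mir425 hold the strongest shades, up to 0.30 in size against Mir186, while ratios among Mir191, Mir423, Mir361 and Mir186 stay within 0.04 of 0.

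Scaling by these microRNAs was then compared with scaling by library totals. The total of pup 2 was 1.33 times that of pup 1, and TMM (1.32) and DESeq2 (1.33) gave nearly the same. Mir186 counts gave 1.33, those of Mir361, Mir191 and Mir423 gave 1.29 each, Mir324 gave 1.23 and Mir425 gave 1.08. The geometric mean over all 6 was 1.25, a difference of -5.86% from the totals, and without Mir425 it was 1.29, a difference of -3.04%.

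The choice carried over to other genes. With library totals, 185 of the 222 well-counted genes lay within 1.2-fold between the pups. Scaled by Mir186, Mir423, Mir191 or Mir361 alone, 185, 185, 184 and 183 genes did. With Mir324 alone the number was 169 and with Mir425 alone it was 96. The geometric mean of the 6 gave 175, and 186 without Mir425. Mir122, the main hepatocyte microRNA, had a log2 ratio of 0.05 between the pups with library totals, 0.05 relative to Mir186, 0.09 relative to Mir191, Mir423 or Mir361, 0.16 relative to Mir324 and 0.35 relative to Mir425. It was higher in pup 2 on each of these scales. The median log2 ratio of the 222 genes moved with the scale as well, from 0.00 with library totals to 0.11 with Mir324 alone and 0.30 with Mir425 alone, so the distance of Mir122 from that median was by construction the same on every scale.

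**Figure D4:**
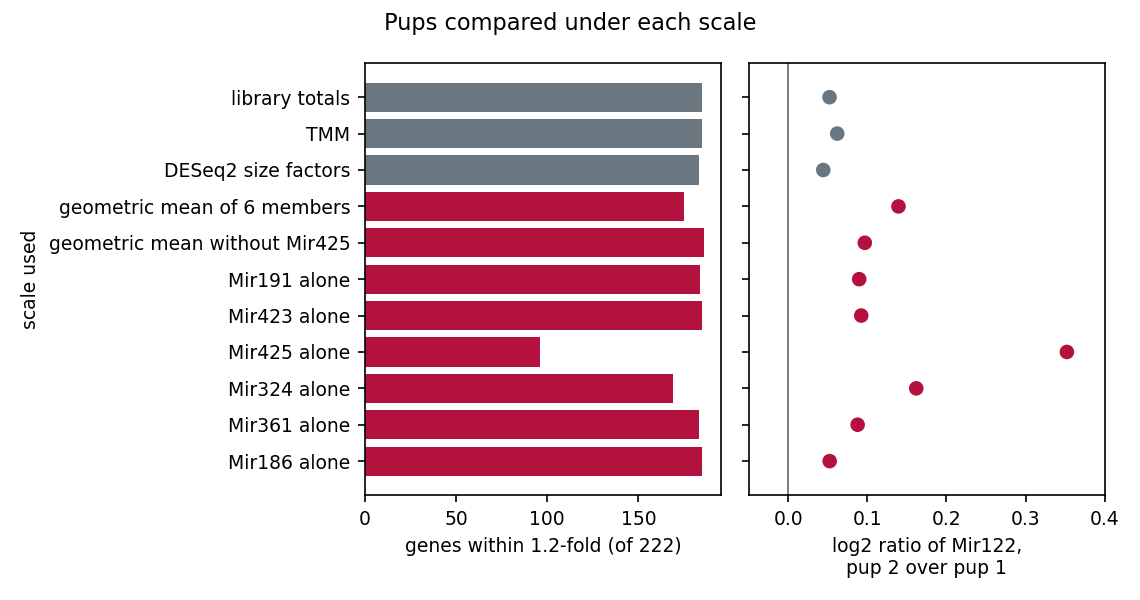
Left, number of the 222 well-counted genes that lay within 1.2-fold between the pups when counts were scaled as named. Right, log2 ratio of Mir122 (pup 2 over pup 1) on the same scales. Grey marks scales from all genes and red those from the reference microRNAs, and Mir425 alone stands apart on both sides, at 96 genes and 0.35.

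Other microRNAs that have been put forward as references were looked at in the same way, as a list of 28 genes of which 26 could be tested. Of these, 15 were called, 4 higher and 11 lower in pup 2, and 11 were not called. The background over all genes was 30.2%, or 48.6% among the well-counted genes, to which 24 of the 26 belong. It was 64.9% among genes with 1000 counts or more in each library, a depth that some of the 24 did not reach. The median log2 ratio of the 26 genes was -0.12, against -0.04 for the 6 members and 0.00 over all 391 genes tested. Among the 24 well-counted genes, 17 lay within 1.2-fold and 5 differed by less than 5%. The shares over all 222 well-counted genes were 83.3% and 31.5%.

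The most equal of these 24 genes were Mir99b (7584 and 7606 CPM), Mir151 (1977 and 1949 CPM) and Mir185, each differing by less than 5% and not called. The least equal were Mirlet7a-2 (144 and 104 CPM, log2 ratio -0.47), Mir16-2 (690 and 505 CPM, -0.45) and Mirlet7a-1 (180 and 138 CPM, -0.39). All 3 were called as lower in pup 2. Mature let-7a and miR-16 come from more than 1 gene, and these 3 entries share a stretch of 20 bases with other loci, so reads that map to several places are missing from them. Among the 15 tested genes whose hairpin shares no such stretch, 14 lay within 1.2-fold, the median log2 ratio was -0.03 and 9 were called. All 15 were well counted, and 48.6% of all well-counted genes were called. Of the genes with 1000 counts or more in each library, 64.9% were called.

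**Figure D5:**
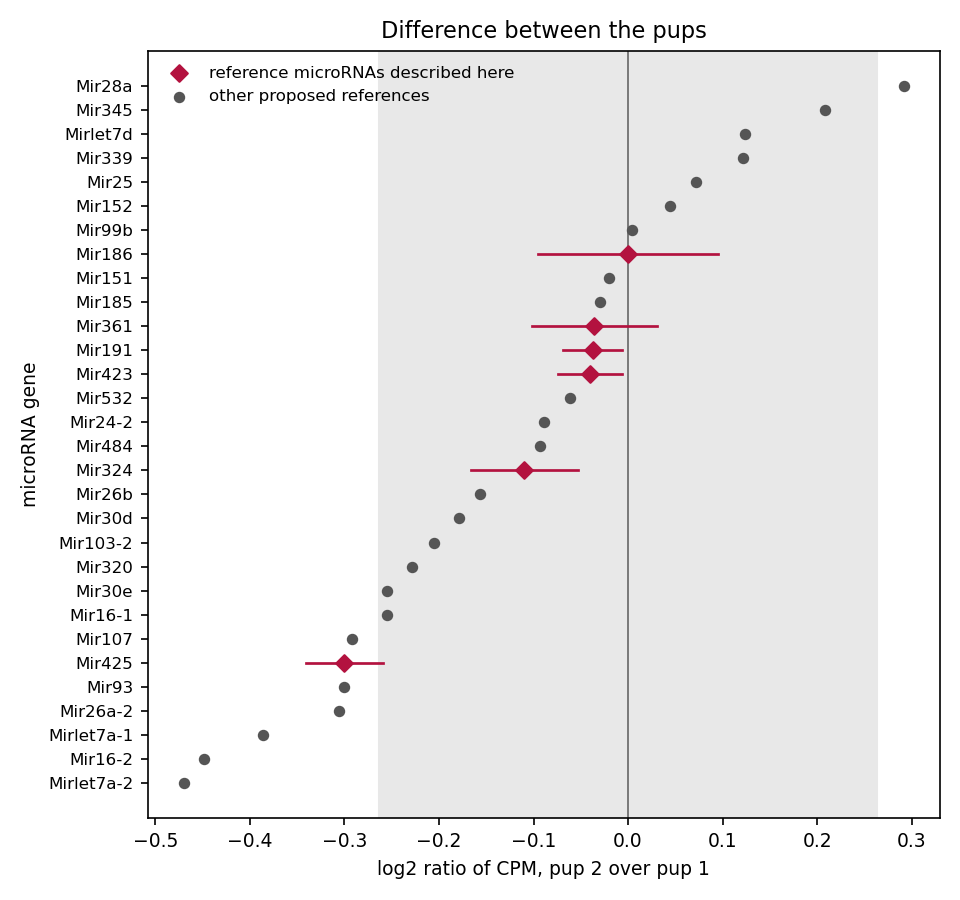
Log2 ratio of CPM (pup 2 over pup 1) for the 6 reference microRNAs (red diamonds, with exact 95% intervals) and for the 24 well-counted genes among the other proposed references (grey points); the grey band is 1.2-fold. Mir186, Mir361, Mir191 and Mir423 sit near 0, and Mir425 at -0.30 lies among the lower genes.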

How the data were processed

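MicroRNA libraries from the livers of 2 pups were used, 1 per pup. Each deposited table holds the authors' raw counts for microRNA genes on mm10 with GENCODE M4, per the accompanying text files, counted without regard to strand, on the gene strand and on the opposite strand. The meaning of these columns was taken from the values. Aligner and counter: not given in the sources used here. Reads outside the annotated genes on the gene strand were 8.87% and 9.92% of uniquely mapped reads and stayed out of totals. Reads that map to several loci (25.2% and 24.7% of all reads) are on no gene. Symbols, positions and host transcripts came from GENCODE M21, also on mm10 (1894 of 1973 entries matched, and the other 79 held 0 counts), and mature sequences from RefSeq.

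CPM are counts per 1000000 gene-strand counts. Genes with 10 counts or more in all (391, with Gm24083 read on the opposite strand) were compared by a two-sided exact binomial test given the library totals, with Benjamini-Hochberg adjustment at 0.05 (scipy 1.17.1), and well-counted genes had 100 or more in each library. The code was tested on simulated data. A quasi-likelihood fit needs a second group. edgeR 4.0.16 gave TMM and the negative binomial exact test, with the dispersion from an intercept-only design, and DESeq2 1.42.0 gave size factors. Named genes were the members, their neighbours in level, loci within 10 kb, the 3 most and 3 least equal of the other proposed references, Mir122 and Mir206. Mir489 and Mir6921 were named after their values were seen. The members and lists were chosen with earlier results of these data known. Alternatives were counts without strand, other scalings and filters, a pseudocount of 10 CPM, the other test, and leaving out a pup or a member. Scaling by the members was added after the data were seen.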

Additional observations from a re-analysis of the deposited data

How the results depend on the processing

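The largest dependence was on which test and which reference were used. With the negative binomial exact test of edgeR, 2 of the 391 genes and 0 of the 6 members were called, in place of 118 and 2, with a dispersion taken from the same 2 libraries, so few calls were possible. The log2 ratios of Mir425 and Mir324 stayed at -0.30 and -0.11 there. With DESeq2 size factors 4 of the 6 members were called. Leaving out Mir122 from the total put the summed level of the members at 19798 CPM instead of 12899 CPM. With the full total, pup 1 alone gave 13322 CPM and pup 2 alone gave 12476 CPM. Scaled by Mir425 alone, 201 genes were called, 4 lower and 197 higher in pup 2, and 96 lay within 1.2-fold; scaled by the other members, alone or by the geometric mean of all 6, between 119 and 139 genes were called. With totals 56 of the 118 called genes were lower and 62 higher, with the total without Mir122 46 and 72, and with the geometric mean of the members 37 and 100 of 137. With Mir324 alone 27 were lower and 112 higher, and with Mir191 alone 43 and 79. At 1000 counts or more in each library, 117 of 131 genes lay within 1.2-fold. Without Mir425 the scale from the members was 1.29 instead of 1.25. Among other proposed references with unique hairpins, 9 of 15 were called. Over all genes, 48.6% of the well-counted ones and 64.9% of those with 1000 counts or more in each library were called. TMM, counts without strand and the total without Mir122 changed no call of a member, and the pseudocount left each log2 ratio within its interval. The value of Mir186, about 0, turned slightly above 0 with TMM (0.01), with counts without strand (0.00) and without Mir122 (0.03). No paired analysis was possible because the samples form 1 group. Depth limits Mir186 most, where the interval of the difference ran from -6.42% to 6.85%.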
